A study of Mus musculus with 15 samples.

Results

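The endoplasmic reticulum folding and stress genes described here are 31 genes, chosen by symbol from a list of chaperones of the endoplasmic reticulum (ER), sensors of the unfolded protein response and genes of ER-associated degradation. All 31 were among the 15302 genes in the deposited table, and all 31 passed the filter on low counts, as did 12274 genes in all. Liver RNA of 15 wild-type (WT) mice was sequenced, with 5 libraries in each of 3 groups. The GDF15 group received recombinant GDF15, a stress-induced cytokine that lowers food intake, by subcutaneous injection at 1 nmol/kg once a day in the morning. The PairFed group received each day the amount of food that the GDF15 animals had eaten the day before, and the Vehicle group is named in the labels as vehicle-treated. All 3 groups had been on a diet for metabolic dysfunction-associated steatohepatitis (MASH), in housing at about 29 °C, from 8 weeks of age, so the Vehicle livers are livers of MASH-diet animals and not of chow-fed ones. All animals were housed singly. The sources used here give no sex or strain, no age at collection and no length of treatment, and do not say whether PairFed animals were injected. GDF15 vs PairFed addresses what differed at a matched food intake, and PairFed vs Vehicle what differed with the lower food intake.

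Proteins that hepatocytes secrete enter the ER through the translocon, fold there with the help of chaperones, lectins and disulfide isomerases, and are returned to the cytosol for degradation when they fail to fold. When unfolded proteins build up, the sensors IRE1 (Ern1), PERK (Eif2ak3) and ATF6 (Atf6) act through the factors XBP1, ATF4 and cleaved ATF6, which raise transcription of chaperone and degradation genes. This is the unfolded protein response. In liver the same genes are known to vary with feeding, since a meal raises the load of secreted protein.

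The promoters of the genes with which the results below deal most are shown first, because the response elements in them are what the factors bind. RefSeq promoter windows of assembly GRCm38.p6, the 250 bases before each start and the 50 from it, were held for 25 of the 31 genes. Hyou1, Manf, Atf6, Ppp1r15b, Derl1 and Sec61a1 had no entry. The windows were searched on both strands for exact letters: the ER stress response element (CCAAT and CCACG with 9 bases between), the ER stress response element II (ATTGG and CCACG with 1 base between), the unfolded protein response element (TGACGTGG) and the core of the ATF4 composite element (TTGCATCA). No match overlapped another. The 250 bases before the start are printed 5′ to 3′ on the gene's own strand, with the matches in capitals.
Herpud1, chr8:94386179-94386428, plus strand: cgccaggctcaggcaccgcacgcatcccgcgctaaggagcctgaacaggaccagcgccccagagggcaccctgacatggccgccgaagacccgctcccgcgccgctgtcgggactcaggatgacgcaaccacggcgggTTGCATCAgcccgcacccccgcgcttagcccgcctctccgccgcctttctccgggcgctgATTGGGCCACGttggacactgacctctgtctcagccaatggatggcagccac
Hspa5, chr2:34771840-34772089, plus strand: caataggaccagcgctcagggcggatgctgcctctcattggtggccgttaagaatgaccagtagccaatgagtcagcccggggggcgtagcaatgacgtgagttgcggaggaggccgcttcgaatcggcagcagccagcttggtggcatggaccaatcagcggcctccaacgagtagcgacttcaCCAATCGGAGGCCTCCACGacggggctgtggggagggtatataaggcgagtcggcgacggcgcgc
Creld2, chr15:88819396-88819645, plus strand: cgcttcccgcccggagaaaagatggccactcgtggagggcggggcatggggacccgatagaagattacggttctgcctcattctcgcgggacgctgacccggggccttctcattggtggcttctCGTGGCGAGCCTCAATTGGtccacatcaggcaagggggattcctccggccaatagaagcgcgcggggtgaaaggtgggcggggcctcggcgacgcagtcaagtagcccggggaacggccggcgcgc
In Herpud1 the capitals nearer the start are the ER stress response element II, at bases 52 to 42 before the start, and those farther out are the ATF4 core, at bases 112 to 105. In Hspa5 the capitals are the ER stress response element at bases 65 to 47, and in Creld2 they are the same element on the opposite strand at bases 126 to 108.

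The ER stress response element was found in 9 of the 25 genes with a window (36%), against 0.137% of all 27025 genes with a RefSeq window. The list was chosen from genes of the response whose factors bind such elements, so these shares are a description and not a test. The 9 were Hspa5, Hsp90b1, Calr, Canx, Pdia6, Dnajc3, Creld2, Syvn1 and Derl3. The element with 10 bases on either side is shown for those not printed above, so that the spacing and strand can be compared.
Hsp90b1, chr10:86705628-86705666, minus strand: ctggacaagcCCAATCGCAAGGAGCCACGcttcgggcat
Hsp90b1, chr10:86705523-86705561, minus strand: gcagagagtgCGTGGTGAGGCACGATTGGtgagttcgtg
Calr, chr8:84847065-84847103, minus strand: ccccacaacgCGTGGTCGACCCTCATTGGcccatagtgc
Canx, chr11:50325790-50325828, minus strand: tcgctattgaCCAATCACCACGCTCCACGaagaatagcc
Pdia6, chr12:17266481-17266519, plus strand: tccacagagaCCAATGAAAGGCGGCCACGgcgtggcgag
Dnajc3, chr14:118937817-118937855, plus strand: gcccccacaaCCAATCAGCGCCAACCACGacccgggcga
Syvn1, chr19:6046522-6046560, plus strand: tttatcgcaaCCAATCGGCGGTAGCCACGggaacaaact
Derl3, chr10:75893232-75893270, plus strand: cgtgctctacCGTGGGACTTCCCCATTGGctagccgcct
The element II was found in Herpud1 and Dnajb11 (8% of the 25 genes, and 0.0444% of all genes with a window). The ATF4 core was found in Herpud1 (4%, and 1.03% of all genes with a window). No window of these genes held the exact letters searched for as the unfolded protein response element, which 0.714% of all genes with a window held. Variants of those letters were not searched for. Herpud1 was the one gene of the 25 with matches to more than 1 of the 4 searches. A match is a run of letters and was not tested as a binding site. In PairFed vs Vehicle, the 9 genes with the ER stress response element had a median of -0.42 log2 and the 16 without it -0.30. The medians were -0.19 and -0.17 in GDF15 vs Vehicle, and in GDF15 vs PairFed 0.23 and 0.17, all given as a description.

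Levels are given as CPM, which put each count over the TMM-scaled total of its library and so allow libraries of unlike depth to be compared. Tests are edgeR's quasi-likelihood test across all 12274 genes with Benjamini-Hochberg adjustment, and a gene is said to have risen or fallen at an adjusted p below 0.05. Derl2, Hsp90b1, Manf, Pdia3, Ppp1r15a and Syvn1 share annotated exon bases with another gene in the table, from 12 bases (Ppp1r15a) to 415 (Hsp90b1). These overlaps are on the opposite strand, except for 14 bases that Manf shares with Rbm15b. The library kit was directional, but the strand setting of the counting was not given, so their counts can hold some reads of the other gene. Libraries held between 8551557 and 12994187 counts. The largest gap in the totals, between 10914914 and 12137462, set 5 deeper libraries (PairFed libraries 2 to 5 and Vehicle library 4) apart from the 10 shallower ones, so 4 of the 5 deeper libraries were PairFed and 0 were GDF15. Hepatocyte markers were high in every group, and 12 of 12 were in the table. Albumin (Alb) averaged 82140 CPM in GDF15, 75920 in PairFed and 68830 in Vehicle livers, and the 12 markers summed to 128500 to 161300, 124300 to 149800 and 115300 to 139500 CPM. The 10 markers of recruited monocytes and macrophages summed to 320 to 571 CPM in GDF15, 381 to 563 in PairFed and 412 to 863 in Vehicle livers. Their median was -0.44 log2 in GDF15 vs Vehicle, where Ly6c2 fell, on 166 counts over all 15 libraries. It was -0.60 in PairFed vs Vehicle, where 0 were called. At an unadjusted p below 0.05, 6 were lower in GDF15 vs Vehicle and 4 in PairFed vs Vehicle. Of all tested genes, 7.54% and 8.25% were lower at that level. Of 10 markers of T and NK cells, which summed to 11.8 to 13.8 CPM in GDF15, 10.2 to 12.8 in PairFed and 9.20 to 16.9 in Vehicle livers, 5 were tested. Cd3g and Cd8a fell and Zap70 rose in GDF15 vs Vehicle, and the medians were -1.36 there and -0.88 in PairFed vs Vehicle. Cd3g averaged 0.450 CPM in GDF15 and 1.34 in Vehicle livers, and Cd8a 0.411 and 1.71 CPM. These 2 genes held 141 and 159 counts over all 15 libraries. Zap70 made up much of the T and NK sum, which averaged 12.4, 11.5 and 14.7 CPM in GDF15, PairFed and Vehicle livers. Zap70 alone averaged 8.35, 6.31 and 4.84 CPM in that order. The 7 markers of bile duct cells summed to 129.6 to 324 CPM in GDF15, 154 to 275 in PairFed and 198 to 479 in Vehicle livers. Most of that sum was Spp1, which is also in the list for monocytes and macrophages. Spp1 averaged 184, 196 and 295 CPM in GDF15, PairFed and Vehicle livers, where the bile duct sum averaged 211, 216 and 331. The 6 bile duct markers tested had medians of -0.31 in GDF15 vs Vehicle and -0.60 in PairFed vs Vehicle, where Sox9 fell. Of 8 markers of sinusoidal endothelial cells, 5 were positive in GDF15 vs Vehicle, 8 in PairFed vs Vehicle and 0 in GDF15 vs PairFed. Of 9 markers of resident Kupffer cells, 6 were positive in GDF15 vs Vehicle and 5 in PairFed vs Vehicle. For 10 markers of stellate cells and fibroblasts these numbers were 0 and 1. No endothelial, Kupffer or stellate marker was called. In bulk liver, fewer cells of a type and less RNA per cell cannot be told apart, and the part of cell makeup in the results below was not tested.

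One of the 31 genes, Herpud1, rose in GDF15 livers, both against Vehicle and against PairFed. None of the 31 fell in any of the 3 comparisons. In GDF15 vs Vehicle 1 gene rose and 0 fell, where 2.02% of all tested genes rose and 0.88% fell. In PairFed vs Vehicle 0 rose and 0 fell, where 0.147% and 0.139% of all genes did, and in GDF15 vs PairFed 1 rose and 0 fell, where 0.562% and 0.22% did.

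The other 30 genes passed in no comparison. In PairFed vs Vehicle 28 of the 31 log2 fold changes were negative, with a median of -0.31 (1.24-fold lower), beside a median of -0.00 over all tested genes. At an unadjusted p below 0.05, 19 of the 31 were lower and 0 higher, where 8.25% of all tested genes were lower and 8.66% higher. After adjustment 11 lay below 0.1, and the lowest adjusted p was 0.0503, for Creld2. In GDF15 vs Vehicle 25 of the 31 were negative, with a median of -0.16. There 10 were lower and 2 higher at an unadjusted p below 0.05, against 7.54% lower and 9.12% higher of all genes. These 2 comparisons share the 5 Vehicle libraries, so their directions are not separate evidence. In GDF15 vs PairFed 26 of 31 were positive, with a median of 0.20, and 7 were higher and 0 lower at an unadjusted p below 0.05, against 7.01% and 6.31% of all genes. That median was -0.0007 with a term for the deeper libraries, most of which are PairFed, and -0.087 in the shallower libraries, which hold 1 PairFed library.

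The count of lower genes in PairFed livers depended on the test. DESeq2's Wald test called 12 of the 31 lower in PairFed vs Vehicle, where it called 1.26% of all tested genes lower. These were Hspa5, Hsp90b1, Hyou1, Calr, Pdia3, Pdia4, Dnajb11, Sdf2l1, Creld2, Manf, Ern1 and Syvn1. Limma-voom called 1 lower, Creld2, with 38 genes of the whole table called in either direction, where edgeR called 35. PairFed library 1 was the only shallower library of its group. Without it, only deeper PairFed libraries were left, and edgeR called 11 lower, with 135 genes of the whole table called. Without Vehicle library 5 it called 6, with 94 over the whole table. Without GDF15 library 3, which enters through the shared spread, it called 1, with 54 over the whole table. When Vehicle library 1, Vehicle library 3, PairFed library 2 or PairFed library 4 was left out, edgeR called 0 genes of the whole table. In GDF15 vs Vehicle DESeq2 called Creld2, Manf and Syvn1 lower and Herpud1 and Ppp1r15a higher, where it called 1.71% of all genes lower and 3.52% higher. Its calls in GDF15 vs PairFed were Herpud1 alone, where 1.59% of the 9656 genes with an adjusted p rose.

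The 31 genes held 0.690%, 0.617%, 0.707%, 0.630% and 0.652% of the counts in the GDF15 libraries. In PairFed libraries they held 0.698%, 0.610%, 0.509%, 0.548% and 0.581%, and in Vehicle libraries 0.796%, 0.870%, 0.886%, 0.751% and 0.650%. The share averaged 0.659% ± 0.0385 in GDF15, 0.589% ± 0.0713 in PairFed and 0.791% ± 0.0960 in Vehicle livers (SD, n = 5 each). Vehicle library 5 lay inside the range of both other groups, and PairFed library 1 inside that of the GDF15 group. PairFed library 3 was the lowest of all 15 for 19 of the 31 genes, and Vehicle libraries 2 and 3 were the highest for 13 and 11.

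**Figure D1:**
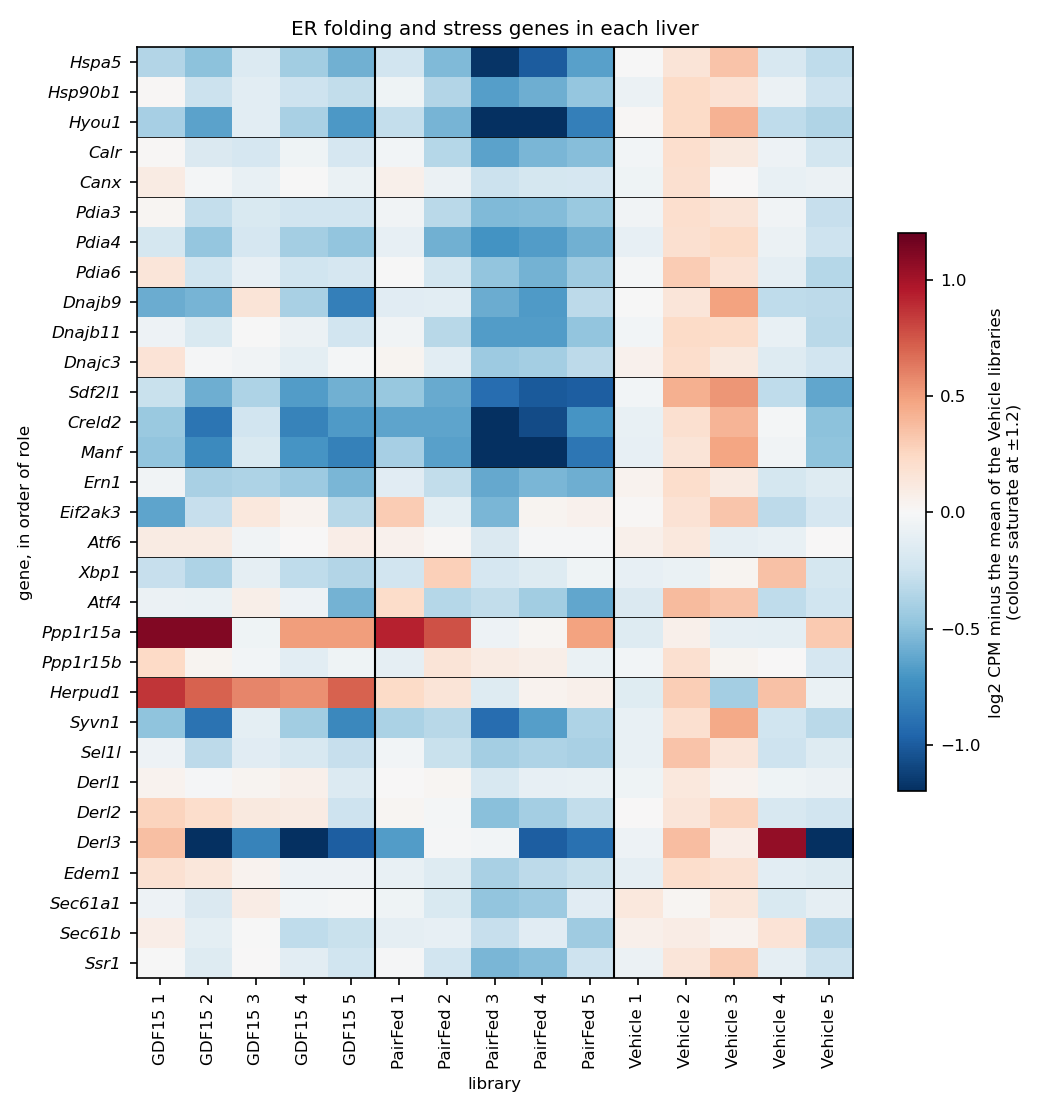
Log2 CPM of each of the 31 genes (rows, in order of role, parted by thin lines) in each of the 15 libraries (columns, GDF15, PairFed, Vehicle), minus the mean of the Vehicle libraries for that gene; blue is lower and red is higher. Herpud1 is red in all 5 GDF15 columns, while most other rows are blue in PairFed libraries 3 to 5, and PairFed library 1 is paler than the rest of its group.

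The Hsp70 and Hsp90 chaperones of the lumen, with the exchange factor that serves them, were lowest in PairFed livers. Hspa5 encodes BiP, which binds unfolded chains and holds the 3 sensors inactive. Its level was 862, 782, 977, 821 and 734 CPM in GDF15 libraries, 933, 759, 486, 547 and 699 CPM in PairFed libraries, and 1095, 1225, 1389, 962 and 886 CPM in Vehicle libraries. GDF15 library 3 and PairFed library 1 overlapped the Vehicle group, and the other 8 lay below all Vehicle libraries. The log2 difference was -0.41 ± 0.16 in GDF15 vs Vehicle (SE, edgeR adjusted p = 0.203) and -0.70 ± 0.16 in PairFed vs Vehicle (edgeR adjusted p = 0.0735). Between GDF15 and PairFed it was 0.29 ± 0.16 (edgeR adjusted p = 0.464).

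Hyou1, a large Hsp70-like protein that exchanges the nucleotide of BiP, was at 196, 165, 236, 197 and 159.6 CPM in GDF15 libraries, 211, 174, 97.0, 105 and 146 CPM in PairFed libraries, and 259.5, 303, 344, 209 and 200.2 CPM in Vehicle libraries. GDF15 library 3 and PairFed library 1 overlapped the Vehicle range, and PairFed libraries 3 and 4 were the lowest of all. The difference was -0.46 ± 0.22 log2 in GDF15 vs Vehicle (edgeR adjusted p = 0.302) and -0.84 ± 0.22 in PairFed vs Vehicle (edgeR adjusted p = 0.0961). Hsp90b1, which encodes GRP94, the Hsp90 of the ER, averaged 846 ± 77.9 CPM in GDF15, 722 ± 126 in PairFed and 965 ± 131 in Vehicle livers, and PairFed vs Vehicle was -0.42 ± 0.11 log2 (edgeR adjusted p = 0.0905).

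The lectin chaperones hold glycoproteins while they fold. Calr, the soluble one, had the highest level per length of the 31 genes, 399 CPM per kb of its longest coding transcript over all 15 libraries. It averaged 896 ± 62.4 CPM in GDF15, 739 ± 129.5 in PairFed and 979 ± 111 in Vehicle livers, with -0.41 ± 0.10 log2 in PairFed vs Vehicle (edgeR adjusted p = 0.0781). Canx, its membrane-bound relative, was at 414 ± 22.2, 383 ± 35.3 and 420.4 ± 35.2 CPM in the same order, with -0.14 ± 0.07 log2 in PairFed vs Vehicle (edgeR adjusted p = 0.344).

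The disulfide isomerases form and reshuffle disulfide bonds. Pdia4 averaged 239 ± 22.8 CPM in GDF15, 214 ± 40.5 in PairFed and 307 ± 44.2 in Vehicle livers, with -0.36 ± 0.12 log2 in GDF15 vs Vehicle (edgeR adjusted p = 0.110) and -0.52 ± 0.12 in PairFed vs Vehicle (edgeR adjusted p = 0.0674). PairFed library 1 stood at 285 CPM, while the other 4 PairFed libraries lay between 185 and 204. Pdia3, which works with the lectins, and Pdia6 were at -0.37 ± 0.10 and -0.34 ± 0.12 log2 in PairFed vs Vehicle (edgeR adjusted p = 0.0972 and 0.173).

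The J-domain co-chaperones bring substrates to BiP. Dnajb11 averaged 89.4 ± 5.65 CPM in GDF15, 72.1 ± 13.7 in PairFed and 97.4 ± 15.28 in Vehicle livers. Its log2 difference was -0.44 ± 0.12 in PairFed vs Vehicle (edgeR adjusted p = 0.0994) and 0.31 ± 0.12 in GDF15 vs PairFed (edgeR adjusted p = 0.259). Dnajb9, known as a repressor of IRE1 and a target of XBP1, was at -0.43 ± 0.20 in GDF15 vs Vehicle (edgeR adjusted p = 0.286) and -0.38 ± 0.19 in PairFed vs Vehicle (edgeR adjusted p = 0.329). Dnajc3, also called p58IPK, an inhibitor of PERK as well as a co-chaperone, was at -0.01 ± 0.10 in GDF15 vs Vehicle and -0.25 ± 0.10 in PairFed vs Vehicle (edgeR adjusted p = 0.968 and 0.205).

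The 3 accessory factors of the lumen had the largest differences of any role in PairFed vs Vehicle, from -0.88 to -0.85 log2, and all 3 were also below an unadjusted p of 0.05 in GDF15 vs Vehicle. Creld2, an ER protein with isomerase activity that is secreted under stress, was at 37.9, 28.1, 44.2, 29.6 and 32.4 CPM in GDF15 libraries, 33.4, 33.3, 21.9, 24.6 and 31.7 CPM in PairFed libraries, and 48.7, 59.2, 69.0, 51.1 and 36.7 CPM in Vehicle libraries. All 5 PairFed libraries lay below all 5 Vehicle libraries, while GDF15 libraries 1 and 3 lay above the lowest Vehicle library. Besides Creld2, the groups did not overlap for 1 more of the 31 genes in PairFed vs Vehicle, Syvn1, and 1.71% of all tested genes were that much lower. For Creld2 the difference was -0.87 ± 0.17 log2 in PairFed vs Vehicle (edgeR adjusted p = 0.0503) and -0.62 ± 0.17 in GDF15 vs Vehicle (edgeR adjusted p = 0.0701). It passed in PairFed vs Vehicle with DESeq2 size factors (edgeR adjusted p = 0.0488), upper-quartile factors (0.0434) or a filter of 10 CPM in 5 libraries (0.0346). It did not pass with a term for the deeper libraries (edgeR adjusted p = 0.246) or the level of immediate-early genes, described below, as a covariate (0.214). Nor did Creld2 pass in a fit of only the groups compared (0.0769) or with no filter (0.0692). Without 1 library the adjusted p in PairFed vs Vehicle ran from 0.017 to 0.142.

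Manf, a secreted factor that also stabilises BiP's hold on its substrates, was at 109.6, 89.2, 134, 92.9 and 86.3 CPM in GDF15 libraries, 115, 96.6, 60.6, 66.0 and 83.3 CPM in PairFed libraries, and 141, 169, 210.2, 148 and 108 CPM in Vehicle libraries. Vehicle library 5 lay within the range of both other groups. The difference was -0.88 ± 0.20 log2 in PairFed vs Vehicle (edgeR adjusted p = 0.0735) and -0.60 ± 0.20 in GDF15 vs Vehicle (edgeR adjusted p = 0.135). Sdf2l1, which sits in the chaperone complex with Dnajb11, was at 28.5, 22.8, 26.5, 21.5 and 23.0 CPM in GDF15 libraries, 25.0, 22.6, 18.2, 17.0 and 17.2 CPM in PairFed libraries, and 33.4, 46.2, 49.6, 27.8 and 22.3 CPM in Vehicle libraries. Vehicle libraries 4 and 5 lay within the range of the GDF15 libraries. Sdf2l1 differed by -0.85 ± 0.19 log2 in PairFed vs Vehicle (edgeR adjusted p = 0.0735) and -0.55 ± 0.19 in GDF15 vs Vehicle (edgeR adjusted p = 0.150). For these 3 genes GDF15 vs PairFed lay between 0.25 and 0.29 log2, with edgeR adjusted p of 0.564 or more.

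**Figure D2:**
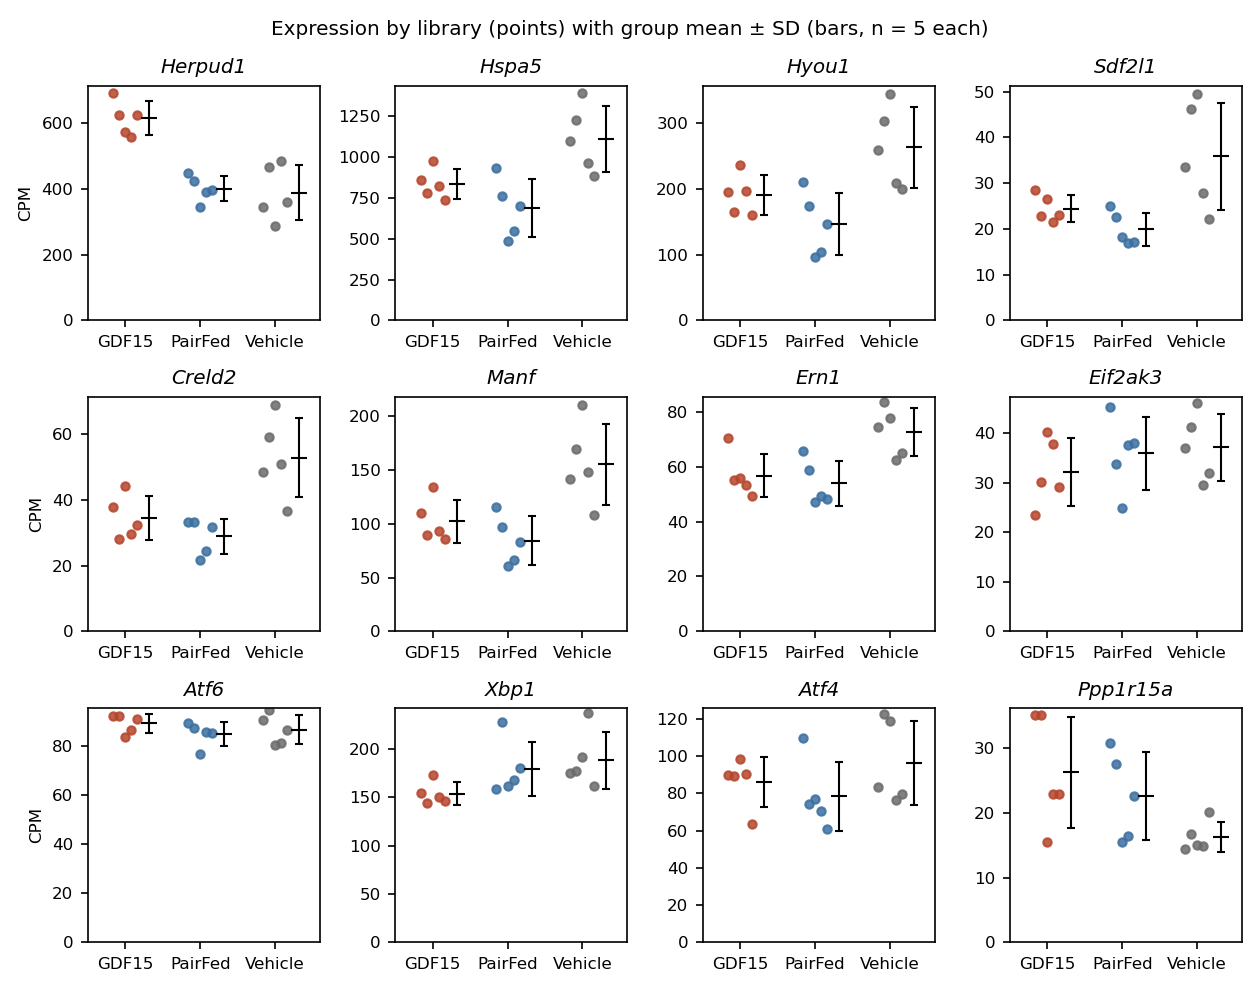
CPM (vertical axes, from 0) of 12 genes in the GDF15, PairFed and Vehicle libraries; points are the 5 libraries of a group and bars the mean ± SD. Herpud1 has every GDF15 library above every PairFed and Vehicle library, Creld2 has every PairFed library below every Vehicle library, and Atf6 lies at nearly one level in all groups.

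Of the 3 sensors, Ern1 was lower and Atf6 nearly level. Ern1 encodes IRE1, the kinase and nuclease that splices Xbp1 RNA. It was at 70.3, 54.9, 55.9, 53.2 and 49.4 CPM in GDF15 libraries, 65.8, 58.8, 47.2, 49.3 and 48.1 CPM in PairFed libraries, and 74.5, 83.5, 77.9, 62.3 and 65.0 CPM in Vehicle libraries. Library 1 of both the GDF15 and the PairFed group overlapped the Vehicle range, and the other 8 lay below it. The difference was -0.36 ± 0.11 log2 in GDF15 vs Vehicle (edgeR adjusted p = 0.0928) and -0.43 ± 0.11 in PairFed vs Vehicle (edgeR adjusted p = 0.0792). In GDF15 vs Vehicle it passed with upper-quartile factors (-0.40, edgeR adjusted p = 0.0474), with a term for the deeper libraries (-0.42, 0.0229) and without GDF15 library 1 (-0.44, 0.0416). It did not pass there with DESeq2 size factors (edgeR adjusted p = 0.0958), no filter (0.106), only the groups compared (0.0977) or the immediate-early covariate (0.455).

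Eif2ak3 encodes PERK, the kinase that phosphorylates eIF2α and so slows translation. It stood at 23.5, 30.2, 40.1, 37.8 and 29.1 CPM in GDF15 libraries, 45.2, 33.7, 25.0, 37.6 and 38.1 CPM in PairFed libraries, and 36.9, 41.3, 46.2, 29.5 and 31.9 CPM in Vehicle libraries. The 3 groups overlapped widely, with -0.20 ± 0.17 log2 in GDF15 vs Vehicle (edgeR adjusted p = 0.607) and -0.05 ± 0.17 in PairFed vs Vehicle (edgeR adjusted p = 0.911). Atf6, the sensor that is cut in the Golgi to free its factor, was at 92.3, 92.2, 83.6, 86.4 and 91.0 CPM in GDF15 libraries, 89.4, 87.1, 76.5, 85.6 and 85.2 CPM in PairFed libraries, and 90.2, 94.4, 80.4, 81.0 and 86.5 CPM in Vehicle libraries. Its standard error, 0.06 log2, was the smallest of the 31 genes, and its log2 difference was 0.04 in GDF15 vs Vehicle and -0.03 in PairFed vs Vehicle (edgeR adjusted p = 0.786 and 0.842). Levels of sensor RNA do not tell how active the sensors were.

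Neither transcription factor passed. Xbp1 was at 154, 144, 173, 151 and 146 CPM in GDF15 libraries, 159, 227, 162, 168 and 180.0 CPM in PairFed libraries, and 175, 177, 191, 237 and 161 CPM in Vehicle libraries. GDF15 library 3 was the highest of its group, and the other 4 lay below all PairFed and all Vehicle libraries. The difference was -0.29 ± 0.11 log2 in GDF15 vs Vehicle (edgeR adjusted p = 0.152), -0.07 ± 0.11 in PairFed vs Vehicle (edgeR adjusted p = 0.769) and -0.22 ± 0.11 in GDF15 vs PairFed (edgeR adjusted p = 0.380). Counts per gene do not part the spliced form of Xbp1, which encodes the active factor, from the unspliced form. Atf4, whose translation rises when eIF2α is phosphorylated, was at 89.7, 89.2, 98.5, 90.3 and 63.3 CPM in GDF15 libraries, 109.8, 74.0, 76.7, 70.4 and 60.9 CPM in PairFed libraries, and 83.6, 123, 118.5, 76.2 and 79.7 CPM in Vehicle libraries. The groups overlapped, with -0.16 ± 0.18 log2 in GDF15 vs Vehicle and -0.30 ± 0.18 in PairFed vs Vehicle (edgeR adjusted p = 0.717 and 0.413).

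Ppp1r15a, also called GADD34, brings the phosphatase that removes the phosphate from eIF2α and is induced by stress, while Ppp1r15b is its constitutive relative. Ppp1r15a was at 35.0, 35.1, 15.49, 22.8 and 22.9 CPM in GDF15 libraries, 30.8, 27.6, 15.42, 16.3 and 22.6 CPM in PairFed libraries, and 14.4, 16.8, 14.97, 14.9 and 20.1 CPM in Vehicle libraries. GDF15 libraries 1 and 2 were the highest, and GDF15 library 3 lay inside the Vehicle range. The difference was 0.69 ± 0.24 log2 in GDF15 vs Vehicle (edgeR adjusted p = 0.150) and 0.47 ± 0.24 in PairFed vs Vehicle (edgeR adjusted p = 0.329). DESeq2 called it in GDF15 vs Vehicle (adjusted p = 0.0437), and edgeR did so without GDF15 library 3 (adjusted p = 0.045). Ppp1r15b was at 89.0 ± 9.04 CPM in GDF15, 89.9 ± 7.09 in PairFed and 88.2 ± 8.66 in Vehicle livers.

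Immediate-early genes are known to answer quickly to handling or any stimulus. Of a list of 22 of them, the 20 tested ones had a median of 0.82 log2 in GDF15 vs Vehicle. There 17 were positive, 12 were higher and 1 lower at an unadjusted p below 0.05, against 9.12% and 7.54% of all genes, and 0 were called. In PairFed vs Vehicle 4 were higher and 2 lower at that level, with a median of 0.23 and 0 called. Their sum was 676 to 2227 CPM in GDF15, 746 to 1389 in PairFed and 488 to 931 in Vehicle livers. Their mean log2 level relative to the Vehicle mean was 1.00, 1.10, -0.07, 0.55 and 0.82 in GDF15 libraries, 0.87, 0.33, 0.06, 0.29 and 0.53 in PairFed libraries, and between -0.33 and 0.39 in Vehicle libraries. In GDF15 library 3 this level and that of Ppp1r15a lay inside the Vehicle range, and Herpud1 was at 574 CPM, against 486 in the highest Vehicle library. With the immediate-early level as a covariate, Ppp1r15a was at 0.017 log2 in GDF15 vs Vehicle (edgeR adjusted p = 0.999) and 0.070 in PairFed vs Vehicle (edgeR adjusted p = 0.885). That level averaged 0.68 ± 0.47 in GDF15 and 0.42 ± 0.30 in PairFed libraries (SD, n = 5 each), so the covariate ran with the groups. Its effect and that of treatment cannot be told apart here, and its part in the Ppp1r15a and Herpud1 values was not tested.

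Herpud1 encodes HERP, a membrane protein of the ER that joins the ubiquitin ligase HRD1 to the degradation machinery. It was at 693, 624.6, 574, 559.6 and 624.8 CPM in GDF15 libraries, 449, 425, 344, 392 and 397 CPM in PairFed libraries, and 344, 467, 287, 486 and 360.0 CPM in Vehicle libraries. The lowest GDF15 library lay above the highest PairFed and the highest Vehicle library, and the PairFed range lay inside the Vehicle range. In GDF15 vs Vehicle it was the 1 gene of the 31 with higher, separate groups, and 2.48% of all tested genes were. In GDF15 vs PairFed there were 2 of the 31, Herpud1 and Edem1, and 1.31% of all tested genes. The means were 615 ± 52.4 CPM in GDF15, 401 ± 39.4 in PairFed and 389 ± 84.7 in Vehicle livers (SD, n = 5 each).

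Herpud1 rose by 0.66 ± 0.12 log2, or 1.58-fold, in GDF15 vs Vehicle (SE, edgeR adjusted p = 0.00645), and by 0.62 ± 0.12, or 1.53-fold, in GDF15 vs PairFed (edgeR adjusted p = 0.0253). PairFed vs Vehicle was 0.04 ± 0.12 (edgeR adjusted p = 0.887). The rise over Vehicle held when each of the 15 libraries was left out, at adjusted p from 0.0026 to 0.0242, and was 0.69 (0.00906) with a term for the deeper libraries. With the immediate-early level as a covariate it was 0.46 log2 and no longer passed (edgeR adjusted p = 0.363), a setting under which 9 genes were called in all. The rise over PairFed lost its call in 5 of the 15 fits without a library, GDF15 1 (adjusted p = 0.0796), GDF15 2 (0.0664), PairFed 3 (0.0748), PairFed 4 (0.0863) and PairFed 5 (0.0683). It was 0.70 log2 (adjusted p = 0.204) with the term for deeper libraries and 0.46 (adjusted p = 1) in the 10 shallower libraries, which hold 1 PairFed library. With the immediate-early covariate it was 0.54 (adjusted p = 0.037).

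Because Herpud1 and Hspa5 are both known targets of the unfolded protein response, their counts were set against each other within each library, where scaling cancels. The pair was chosen after the values were seen, so the ratio is given with no test. It was 0.804, 0.799, 0.588, 0.682 and 0.851 Herpud1 counts per Hspa5 count in GDF15 libraries, 0.481, 0.560, 0.708, 0.716 and 0.568 in PairFed libraries, and 0.314, 0.382, 0.207, 0.505 and 0.406 in Vehicle libraries. All GDF15 libraries lay above all Vehicle libraries, and PairFed libraries overlapped both. The mean was 0.745 ± 0.108 in GDF15, 0.606 ± 0.102 in PairFed and 0.363 ± 0.111 in Vehicle livers (SD, n = 5 each). In PairFed livers the ratio was above the Vehicle mean with Herpud1 at 401 against 389 CPM and Hspa5 at 685 against 1111 CPM.

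**Figure D3:**
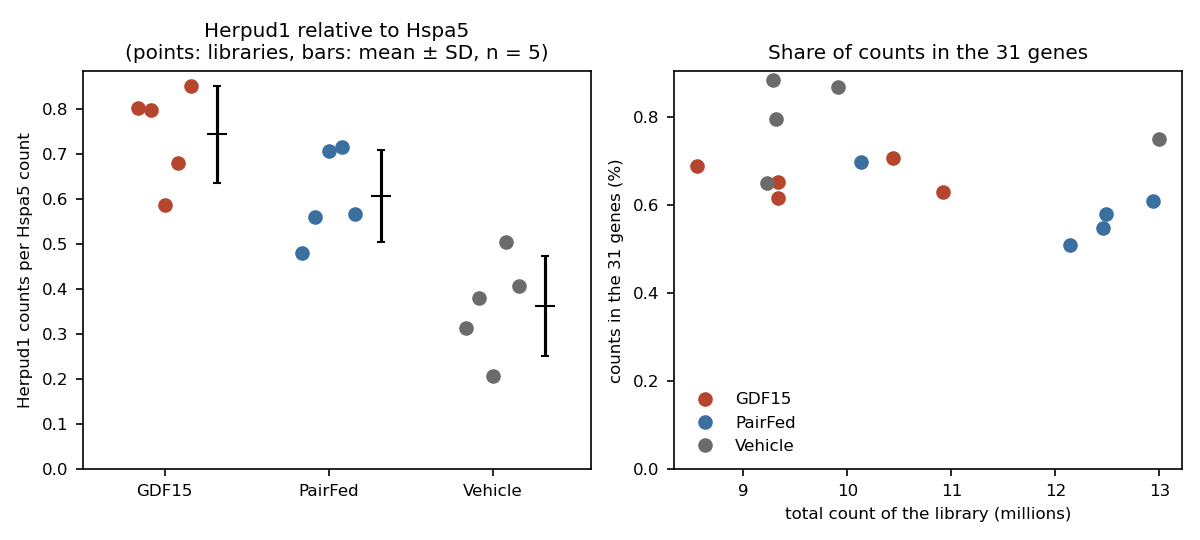
Left, Herpud1 counts per Hspa5 count in the GDF15, PairFed and Vehicle libraries (points) with the mean ± SD (bars, n = 5 each). Right, the share of a library's counts in the 31 genes (percent) against its total count: 4 of the 5 PairFed libraries are to the right with the lowest shares, next to a single Vehicle library of like depth at 0.751%.

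None of the other 6 degradation genes was called in any comparison. Syvn1 encodes HRD1, the ligase that Herpud1 works with, and averaged 96.7 ± 20.7 CPM in GDF15, 96.3 ± 15.8 in PairFed and 141 ± 32.7 in Vehicle livers. It was at -0.54 ± 0.17 log2 in GDF15 vs Vehicle (edgeR adjusted p = 0.118) and -0.55 ± 0.17 in PairFed vs Vehicle (edgeR adjusted p = 0.145), and every PairFed library lay below every Vehicle library. Sel1l, the partner that holds HRD1 in its complex, was at -0.21 ± 0.10 log2 in GDF15 vs Vehicle and -0.31 ± 0.10 in PairFed vs Vehicle (edgeR adjusted p = 0.319 and 0.149). Edem1, a lectin that hands misfolded glycoproteins to this complex, averaged 171 ± 13.6 CPM in GDF15, 139.9 ± 11.9 in PairFed and 166 ± 21.2 in Vehicle livers. All its GDF15 libraries (158 to 188 CPM) lay above all its PairFed libraries (126 to 155), at 0.29 ± 0.09 log2 (edgeR adjusted p = 0.134).

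The derlins are membrane proteins that help pull substrates out of the ER. Derl1 averaged 164 ± 10.1 CPM in GDF15, 157 ± 9.53 in PairFed and 165 ± 9.63 in Vehicle livers, and Derl2 134 ± 17.6, 107 ± 17.4 and 126 ± 18.8 CPM. Derl2 was at 0.33 ± 0.12 log2 in GDF15 vs PairFed (edgeR adjusted p = 0.251). Derl3 had the lowest level of the 31 genes, 2.16 CPM per kb. It was at 4.60, 0.803, 1.95, 0.784 and 1.68 CPM in GDF15 libraries, 2.14, 3.50, 3.46, 1.69 and 1.81 CPM in PairFed libraries, and 3.37, 4.63, 3.74, 7.54 and 1.18 CPM in Vehicle libraries, which rests on 7 to 103 counts a library. The groups overlapped, with -1.12 ± 0.48 log2 in GDF15 vs Vehicle (edgeR adjusted p = 0.248) and -0.72 ± 0.45 in PairFed vs Vehicle (edgeR adjusted p = 0.425).

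Derl3 is also abundant in plasma cells, and Vehicle library 4, its highest library, held 78.5 CPM of the plasma cell gene Jchain, against 0.612 to 7.95 CPM in the other 14. Of 12 markers of B and plasma cells 8 were in the table, and without Sdc1, which hepatocytes also make, these summed to 5.49 to 10.2 CPM in GDF15, 4.90 to 20.9 in PairFed and 4.65 to 116 in Vehicle livers. Their part in the Derl3 values was not tested. Without Vehicle library 4, Derl3 was at -0.76 log2 in GDF15 vs Vehicle and -0.37 in PairFed vs Vehicle. Of 12 markers of pancreas acinar cells, another tissue rich in ER proteins, 3 were in the table, and they summed to 7.11 to 10.9 CPM in GDF15, 7.96 to 11.4 in PairFed and 9.40 to 13.1 in Vehicle livers. Nearly all of that sum was Cela1, at 8.63, 9.08 and 10.99 CPM on average in the same order. Cela2a and Cela3b held 20 and 7 counts over all 15 libraries.

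The translocon genes Sec61a1 and Sec61b, subunits of the channel, and Ssr1, a subunit of the complex beside it, were not called in any comparison. In PairFed vs Vehicle they were at -0.25 ± 0.09, -0.22 ± 0.10 and -0.31 ± 0.11 log2 (edgeR adjusted p = 0.158, 0.257 and 0.161), and in GDF15 vs Vehicle between -0.13 and -0.04. Sec61a1 averaged 186 ± 12.2 CPM in GDF15, 161 ± 20.4 in PairFed and 191 ± 18.3 in Vehicle livers.

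**Figure D4:**
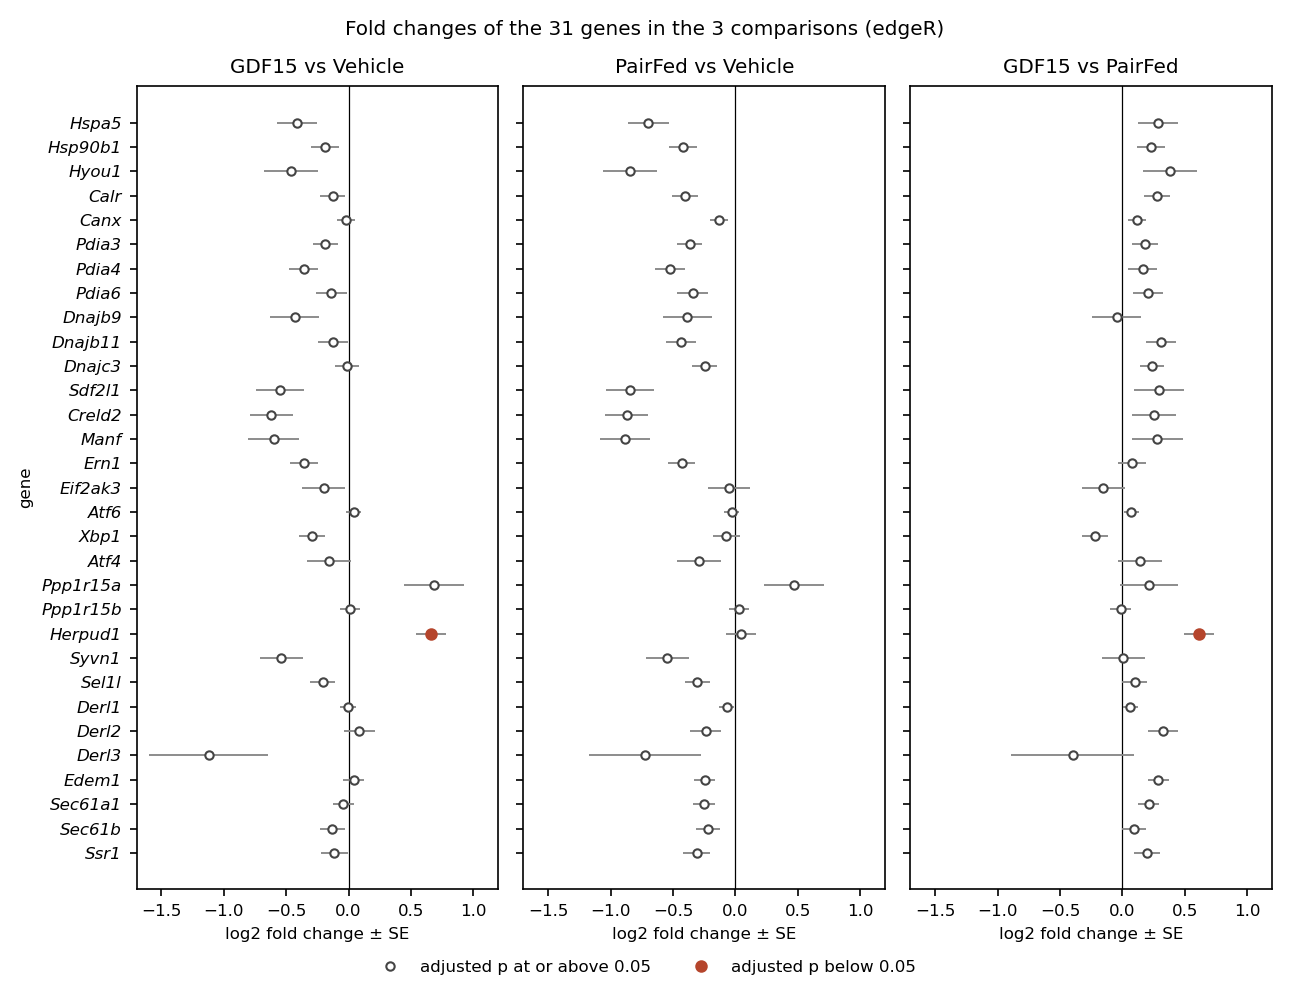
Log2 fold changes with standard errors (horizontal axes) of the 31 genes (vertical axis, in order of role) for GDF15 over Vehicle, PairFed over Vehicle and GDF15 over PairFed; filled points have an edgeR adjusted p below 0.05. Herpud1 is filled at 0.66 and 0.62 in the comparisons of GDF15 livers, and in PairFed vs Vehicle 28 of 31 points lie left of 0.

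The depth of the libraries ran with the PairFed group. Among the 5 deeper libraries, the mean of 4 PairFed libraries was below the 1 Vehicle library for 27 of the 31 genes, with a median log2 difference of -0.32. Among the shallower ones, the 1 PairFed library was below the mean of 4 Vehicle libraries for 25 of 31, with a median of -0.07, and the 5 GDF15 libraries were below it for 25 of 31, with a median of -0.19. A fit of the 10 shallower libraries, in which the lone PairFed library is assumed to vary like the other groups, called 0 genes of the whole table in PairFed vs Vehicle and in GDF15 vs PairFed. With a term for the deeper libraries the median was -0.18 in PairFed vs Vehicle, where 0 genes of the whole table were called, and -0.00 in GDF15 vs PairFed, where 9 were. With that term the median in GDF15 vs Vehicle was -0.22.

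Genes of neighbouring pathways, from lists that hold none of the 31, were mostly not called. For the counts below, 8.25% of all tested genes were lower in PairFed vs Vehicle at an unadjusted p below 0.05. Of 31 other foldases and co-chaperones of the lumen, 0 rose and 0 fell in any comparison, and their median in PairFed vs Vehicle was -0.11 log2, with 7 lower at an unadjusted p below 0.05. None of 19 other genes of translocation and signal peptide handling was called, with 10 of them lower at an unadjusted p below 0.05 in PairFed vs Vehicle and a median of -0.18. For 17 genes of the oligosaccharyltransferase and N-glycan making, which add sugar chains to entering proteins, 0 were called, with 7 lower at that level and a median of -0.13. Nor was any of 22 further sensors and processing factors of the response called, with medians of -0.02 in GDF15 vs Vehicle and -0.08 in PairFed vs Vehicle.

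Among 24 other genes of ER-associated degradation, 1 rose and 0 fell, in both GDF15 vs Vehicle and GDF15 vs PairFed. Of all tested genes, 2.02% rose and 0.88% fell in GDF15 vs Vehicle, and 0.562% rose and 0.22% fell in GDF15 vs PairFed. The gene that rose was Yod1, a deubiquitinase that works with the p97 ATPase. It was at 19.4 ± 4.78 CPM in GDF15 livers, against 11.7 ± 1.28 in PairFed and 11.2 ± 0.68 in Vehicle livers. It rose by 0.78 ± 0.14 log2 in GDF15 vs Vehicle (edgeR adjusted p = 0.00511) and by 0.73 ± 0.14 in GDF15 vs PairFed (edgeR adjusted p = 0.019), with separate groups in both.

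Of 30 tested targets of ATF4 and CHOP, 3 rose and 2 fell in GDF15 vs Vehicle, and 0 were called in the other comparisons. For this list and the next, 2.02% of all tested genes rose and 0.88% fell in GDF15 vs Vehicle. Cebpb, a transcription factor of liver that also answers to hormones, rose by 1.26 ± 0.23 log2 (edgeR adjusted p = 0.0125), at 312 ± 114 CPM in GDF15 and 130.1 ± 32.3 in Vehicle livers. Cth, which makes cysteine, rose by 0.44 ± 0.10 (edgeR adjusted p = 0.0272), and Gpt2, a transaminase of alanine, by 0.29 ± 0.07 (edgeR adjusted p = 0.0398). Mthfd2, an enzyme of mitochondrial folate metabolism, fell by 1.01 on the log2 scale (SE 0.23, edgeR adjusted p = 0.0254), at 1.98 ± 0.496 CPM in GDF15 and 3.99 ± 0.996 in Vehicle livers, and Wars, a tRNA synthetase, fell by 0.40 (SE 0.10, edgeR adjusted p = 0.035). The last list held 22 tested genes of COPII, which carries folded proteins out of the ER, and of other vesicle traffic. Of these, 2 fell in GDF15 vs Vehicle, Sec24c by 0.22 (edgeR adjusted p = 0.0473) and Arfgap3 by 0.60 (edgeR adjusted p = 0.0495).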

How the data were processed

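Liver RNA of 15 mice was made into libraries with a directional kit, per the labels' protocols. The submitters' processing notes name Salmon, DESeq2 and the build mm10, with neither versions nor roles. The authors deposited unscaled estimated counts per gene, all whole, here read as rounded Salmon estimates. Strand setting and transcript set were not given in the sources used here. Columns name a group and not an animal, so library numbers follow the order of the columns; each library is taken as 1 animal.

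Low counts were removed by filterByExpr (count of 10, total of 15), and 99.9% of counts stayed. A model of the 15 libraries, with TMM (trimmed mean of M-values) scaling, was fitted in edgeR 4.0.16 under R 4.3.3 with the robust quasi-likelihood test, checked on simulated counts, and 3 contrasts were tested with Benjamini-Hochberg adjustment over 12274 genes at 0.05. The common biological coefficient of variation was 13.3%. Standard errors were derived from the F statistic. Fold changes and CPM were computed here.

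The 31 genes and all lists were chosen with earlier results of these data known. Given library by library were called genes, Hspa5, Xbp1, Atf4, Atf6, Ern1, Eif2ak3 and the 3 largest changes of each contrast, and in other lists up to 3 called genes per direction. Alternatives were DESeq2 size factors, upper-quartile factors, no filter, 10 CPM in 5 libraries, DESeq2 1.42.0, limma-voom 3.58.1, only the compared groups, a term for deeper libraries, an immediate-early covariate of 20 genes and leaving out each library. A fit of the shallower libraries was added after the data were seen.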

Additional observations from a re-analysis of the deposited data

Results flagged for a closer look

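In 108 sets of 5 values (93 for the 31 genes, the rest for library measures), 5 held a library far from the others of its group by Dixon's criterion, where chance gives about 1 in 20. For Pdia4, PairFed library 1 was highest at 285 CPM, with the next PairFed library at 204. In GDF15 library 5, Atf4 was lowest of its group at 63.3 CPM, with the next at 89.2. Sec61b was lowest in Vehicle library 5 at 42.2 CPM, with the next Vehicle library at 55.4. The total count of PairFed library 1, 10133289, was far below the rest of its group, which began at 12137462. The total count of Vehicle library 4, 12994187, was far above the next Vehicle library at 9906526.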

How the results depend on the processing

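The rise of Herpud1 over Vehicle held under every alternative but the immediate-early covariate (0.46 log2, edgeR adjusted p = 0.363). The values of the 13 genes given library by library were compared under all alternatives except leaving out each library. Of these values, 338 kept their direction and side of the threshold, 3 lost a call, 16 gained one and 29 changed sign. The cause of these differences was not tested.

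The number of the 31 genes lower in PairFed vs Vehicle was 1 with DESeq2 size factors, 2 with upper-quartile factors, 2 with the filter of 10 CPM, 12 with DESeq2 and 1 with limma-voom, against 0. In the same order, 37, 40, 52, 339 and 38 genes of the whole table were called in either direction, against 35. The number lower in GDF15 vs Vehicle was 1 with upper-quartile factors, 1 with the filter of 10 CPM, 3 with DESeq2 and 2 with the term for deeper libraries, against 0. In that order, 334, 332, 642 and 364 genes of the whole table were called in either direction, against 356. The number higher in GDF15 vs Vehicle was 2 with DESeq2 and 0 with the immediate-early covariate, against 1. The number higher in GDF15 vs PairFed was 0 with the term for deeper libraries and 0 in the shallower libraries, against 1.

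Genes called over the whole table in GDF15 vs Vehicle were 356, and 642 with DESeq2, 194 with only the compared groups, 9 with the immediate-early covariate and 151 in the shallower libraries. In PairFed vs Vehicle they were 35, and 339 with DESeq2, 0 with the term for deeper libraries, 0 with the covariate and 0 in the shallower libraries. In GDF15 vs PairFed they were 96, and 259 with DESeq2, 9 with the term, 60 with the covariate and 0 in the shallower libraries. The shallower libraries hold 1 PairFed library, assumed to vary like the other groups, so the counts of 0 there say little about stability. The median of the 31 genes was -0.0007 in GDF15 vs PairFed with the term for deeper libraries, and in the shallower libraries -0.087 there and -0.089 in PairFed vs Vehicle.

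Signs changed with the term for deeper libraries in PairFed vs Vehicle for Herpud1 (-0.011), Eif2ak3 (0.20), Atf6 (0.035) and Atf4 (0.0038). In GDF15 vs PairFed the term gave Hspa5 -0.030, Hyou1 -0.031, Sdf2l1 -0.0455, Ern1 -0.17, Atf6 -0.0135, Xbp1 0.040, Atf4 -0.26, Ppp1r15a -0.079 and Derl3 0.31. With the immediate-early covariate Atf6 was -0.058 in GDF15 vs Vehicle, Herpud1 -0.081, Eif2ak3 0.019 and Xbp1 0.0065 in PairFed vs Vehicle, and Ppp1r15a -0.053 in GDF15 vs PairFed. In the shallower libraries PairFed vs Vehicle was 0.21 for Eif2ak3, 0.021 for Atf6 and 0.12 for Atf4. There GDF15 vs PairFed was -0.16 for Hspa5, -0.14 for Hyou1, -0.033 for Sdf2l1, -0.17 for Manf, -0.22 for Ern1, -0.0049 for Atf6, -0.35 for Atf4 and -0.24 for Ppp1r15a.

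Leaving out 1 library at a time, genes called ran from 134 to 476 in GDF15 vs Vehicle, 0 to 135 in PairFed vs Vehicle and 21 to 171 in GDF15 vs PairFed. Of the 31 genes, 1 to 2 were higher and 0 to 2 lower in GDF15 vs Vehicle, 0 to 11 lower in PairFed vs Vehicle, and 0 to 2 higher in GDF15 vs PairFed. The signs that changed were those of Herpud1 (-0.053 to 0.13), Eif2ak3 (-0.14 to 0.057), Atf6 (-0.061 to 0.0056) and Xbp1 (-0.17 to 0.020) in PairFed vs Vehicle and of Ern1 (-0.011 to 0.16) in GDF15 vs PairFed. The second gene higher in GDF15 vs Vehicle was without GDF15 library 3, and in GDF15 vs PairFed without PairFed library 1. In GDF15 vs Vehicle, 2 were lower without Vehicle library 5 or without GDF15 library 3.

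No paired analysis was possible because neither the columns nor the labels tie a PairFed animal to a GDF15 animal, and library numbers are names only. At 7 to 103 counts a library, Derl3 had standard errors of 0.45 log2 or more.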
